A study of Mus musculus with 12 samples.

Results

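Ung, Smug1, Apex1, Apex2, Msh6, Exo1 and Polh encode enzymes that process the uracil a cytidine deaminase leaves in DNA. The genes were chosen by symbol, as factors of somatic hypermutation, and all their probe sets on the array were taken: 15 probe sets of 7 genes, of 45101 probe sets and 18193 genes in all. Expression was measured on 12 Affymetrix mouse arrays of BL#19, a murine Burkitt lymphoma line, edited with CRISPR/Cas9 at Foxo1, which encodes a forkhead transcription factor. Here wt stands for the wild-type allele and mt for the allele with the amino acid change T24P, and mt- means that this mutant allele was knocked out, so the controls carry it too. The 4 genotypes, with 3 arrays each, were wt-/mt- (both alleles knocked out), wt-/mt+ (wild-type allele knocked out), wt+/mt- (mutant allele knocked out) and wt+/mt+ (both alleles present). Whether arrays of the same genotype came from separate cultures or clones is not stated in the labels. The p-values therefore measure the spread between these arrays only, a spread that may be technical, and each genotype may be represented by a clone.

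In germinal center B cells, a cytidine deaminase turns cytosine to uracil in immunoglobulin genes, and repair of that uracil fixes mutations or breaks. Ung excises the uracil, with Smug1 as a second glycosylase, and the AP endonucleases Apex1 and Apex2 cut the abasic site that remains. Alternatively the U:G mismatch is bound by a complex that contains Msh6, Exo1 resects the strand, and DNA polymerase eta, the product of Polh, fills the gap with errors mainly at A:T pairs.

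Array medians lay between 6.08 and 6.25 on the log2 scale of the deposited values. The number of arrays limits the precision. Spread differed between genotypes, with a median SD over 11457 kept genes of 0.261 on wt-/mt- arrays, 0.111 on wt-/mt+ arrays, 0.133 on wt+/mt- arrays and 0.095 on wt+/mt+ arrays. Over the 7 genes, the median SD was 0.195, 0.145, 0.162 and 0.099 in the same genotypes. The actin 3' to 5' difference, a sign of RNA quality, was 2.17 and 1.71 (log2) on wt+/mt- arrays 7 and 8 and between 1.06 and 1.29 on the other 10 arrays. The added BioC control lay between 10.15 and 10.38 on wt-/mt- arrays, 10.85 and 11.08 on wt-/mt+ arrays, 10.19 and 10.64 on wt+/mt- arrays, and 11.11 and 11.15 on wt+/mt+ arrays. It was thus lower on every array without the mutant allele, and its part in the results below was not tested. All 9 B cell markers on the array lay above the array median in every genotype, as did 3 of 5 T cell markers (Cd3e, Cd4 and Cd8a, with means between 6.40 and 6.93) and, by genotype, 2 or 3 of 7 myeloid markers. Cd3g, Cd3d, Itgam, Cd14, Lyz2, Mpo and all 3 erythroid markers did not. The myeloid marker Cd68 averaged 8.04 on wt-/mt- arrays, 5.73 on wt-/mt+ arrays, 7.18 on wt+/mt- arrays and 6.11 on wt+/mt+ arrays. In the same order Csf1r averaged 7.16, 7.14, 7.22 and 7.11, and Adgre1 6.79, 6.79, 6.89 and 7.17. Of the 3 kept myeloid genes, 1 was called higher in wt-/mt- against wt+/mt+ and against wt-/mt+. Of the 9 B cell markers, 5, 2 and 4 fell in wt-/mt- against wt+/mt+, wt+/mt- and wt-/mt+. Of all kept genes, 9.94%, 8.23% and 11.1% were called lower in these comparisons, and 12.2%, 6.35% and 9.71% higher. The part of these marker changes in the results was not tested. The mean log2 level of the B cell markers was between 11.06 and 11.49 in wt-/mt- and between 11.87 and 11.99 in wt+/mt+. Of 8 germinal center markers, 6 lay above the median on all wt-/mt- arrays, and 7 on all arrays of each other genotype. Gcsam fell short in every genotype, and Rgs13 in wt-/mt-. Against wt+/mt+ and against wt-/mt+, 1 of the 8 was called higher in wt-/mt- and 2 lower. Against wt+/mt-, 1 was called higher and 1 lower. Among 8 genes, counts of 1 are near the shares of kept genes given above. In bulk RNA, fewer cells of a type and less RNA per cell cannot be told apart. Foxo1 fell by 1.65 on the log2 scale in wt-/mt- against wt+/mt+ (SE 0.235, adjusted p = 0.00122), and its transcript differed by -0.18 in wt-/mt+ (95% interval -0.69 to 0.34) and 0.24 in wt+/mt- (-0.28 to 0.75), each against wt+/mt+.

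In cells without Foxo1, Ung and Apex1 were expressed at higher levels, and no gene of the 7 passed the test in the lower direction in any comparison. After loss of both alleles, 2 of the 7 genes rose (limma over all kept genes, Benjamini-Hochberg adjusted p under 0.05), against 12.2% of kept genes called higher and 9.94% called lower. Ung and Apex1 also rose in wt-/mt- against wt+/mt-, where 6.35% of kept genes were called higher and 8.23% lower. Against wt-/mt+, Ung alone of the 7 rose with each gene taken as its brightest probe set, where 9.71% were called higher and 11.1% lower. The other 2 probe sets of Apex1 were called higher there (0.51 and 0.57, limma adjusted p = 0.0200 and 0.0110 over all probe sets). The median change of the 7 genes was 0.17 after loss of both alleles, 0.29 against wt+/mt- and 0.20 against wt-/mt+, while the medians over all kept genes were 0.05, -0.01 and 0.01. These 3 comparisons share the wt-/mt- arrays. An F test over the 4 genotypes called Ung (adjusted p = 0.00667) and Apex1 (adjusted p = 0.0319), among 19.2% of kept genes. All 7 genes passed the filter on dim genes, although Apex2 lay above the array median on 11 of 12 arrays.

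**Figure D1:**
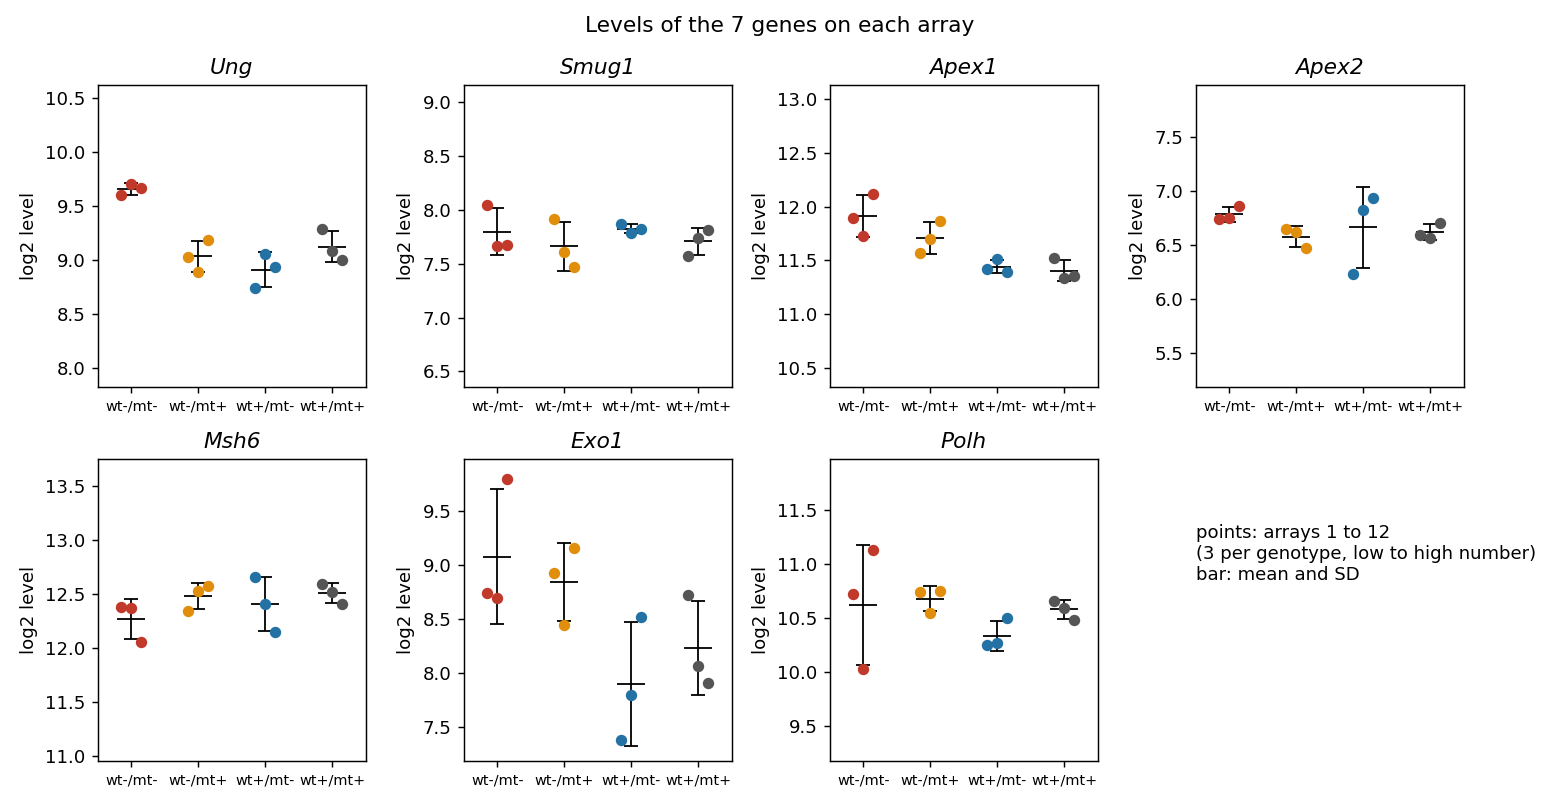
Log2 level of the 7 genes on each of the 12 arrays, by Foxo1 genotype, with the mean and SD of 3 arrays. Axis ranges differ between genes but span the same number of log2 units, and the wt-/mt- arrays of Ung sit between 9.60 and 9.71, above all 9 other arrays.

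Ung, the main uracil glycosylase of B cells, had its highest level in cells without either allele. Its level was 9.60, 9.71 and 9.66 on the wt-/mt- arrays, 9.03, 8.89 and 9.18 on the wt-/mt+ arrays, 8.74, 9.06 and 8.93 on the wt+/mt- arrays, and 9.29, 9.09 and 9.00 on the wt+/mt+ arrays. The 3 arrays of wt-/mt- lay close together and above every other array, whereas the other 3 genotypes overlapped. Ung averaged 9.66 ± 0.06 in wt-/mt- and 9.12 ± 0.15 in wt+/mt+ (SD, n = 3 each), a change of 0.53 (SE 0.119, 1.45-fold, limma adjusted p = 0.0108). It was 0.75 higher on wt-/mt- arrays than on wt+/mt- arrays (1.68-fold, adjusted p = 0.00318) and 0.62 higher on wt-/mt- arrays than on wt-/mt+ arrays (1.54-fold, adjusted p = 0.00514). Loss of the wild-type allele with the mutant allele present gave -0.09 (95% interval -0.35 to 0.17), and loss of the mutant allele with the wild-type allele present gave -0.22 (-0.48 to 0.05). The change on losing the mutant allele thus differed with and without the wild-type allele, and the interaction was 0.84 (SE 0.168, adjusted p = 0.0246), among 0.838% of kept genes called positive and 2.3% called negative. In order of level, wt-/mt- was followed by wt+/mt+, wt-/mt+ and wt+/mt-, and the last 3 overlapped, with no difference between them that passed the test. With 1 weight per genotype, which lets wt-/mt- have its own larger spread, the adjusted p for Ung was 0.119, 0.0761, 0.0805 and 0.0763 for the losses of both, of wt without mt and of mt without wt, and the interaction. Without wt+/mt+ array 3 the loss of both alleles gave 0.47 (adjusted p = 0.0507). Without the high-actin arrays 7 and 8, which leaves array 9 alone in wt+/mt-, the difference from wt+/mt- was 0.73. The interaction ended without array 1, 2, 3, 4, 5 or 7 (0.75 to 0.90, adjusted p 0.0512 to 0.0760).

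The promoters of Ung and Apex1 are shown because these genes passed the test. The windows hold the 250 bases before the annotated start in RefSeq, build GRCm38.p6: chr5:114130185-114130434 on the plus strand for Ung and chr14:50924699-50924948 on the plus strand for Apex1. Capitals mark a match to an E-box, CACGTG.
Ung: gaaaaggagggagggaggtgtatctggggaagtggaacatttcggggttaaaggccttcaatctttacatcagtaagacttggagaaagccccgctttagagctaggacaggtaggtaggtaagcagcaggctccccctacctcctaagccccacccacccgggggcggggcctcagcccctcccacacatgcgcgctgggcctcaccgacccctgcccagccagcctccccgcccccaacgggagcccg
Apex1: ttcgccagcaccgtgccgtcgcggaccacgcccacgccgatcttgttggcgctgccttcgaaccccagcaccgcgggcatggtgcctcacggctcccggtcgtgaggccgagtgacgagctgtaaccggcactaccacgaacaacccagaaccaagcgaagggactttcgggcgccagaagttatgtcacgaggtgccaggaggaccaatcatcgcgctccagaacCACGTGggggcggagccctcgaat
In windows of 300 bases, which run on past the start, both strands were searched for a forkhead motif (GTAAACA), an E2F motif (TTTCCCGC or TTTGGCGC) and the E-box. Of the 7 genes, 5 matched a RefSeq promoter: Ung, Smug1, Apex1, Msh6 and Polh. The Ung window held no match to the 3 motifs, and the Apex1 window held 3 E-boxes, the printed copy beginning 24 bases before the start site. Over 32851 windows of the same length, 7.15% held the E-box, 1.56% the E2F motif and 3.65% the forkhead motif. The Msh6 window held 1 E2F motif, and the Smug1 and Polh windows held none of the 3. A match is a description of letters only.

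Smug1, a glycosylase that also removes uracil, gave no call. Its level was 8.05, 7.66 and 7.68 on wt-/mt- arrays, 7.91, 7.61 and 7.46 on wt-/mt+ arrays, 7.87, 7.78 and 7.82 on wt+/mt- arrays, and 7.57, 7.74 and 7.81 on wt+/mt+ arrays. All 4 genotypes overlapped. The change after loss of both alleles was 0.09 (95% interval -0.22 to 0.40, adjusted p = 0.669), and its 6 pairwise differences lay between -0.16 and 0.13.

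Apex1, the major AP endonuclease, was higher in wt-/mt- than in the genotypes with the wild-type allele. Its brightest probe set measured 11.89, 11.73 and 12.11 on wt-/mt- arrays, 11.57, 11.70 and 11.86 on wt-/mt+ arrays, 11.42, 11.52 and 11.40 on wt+/mt- arrays, and 11.52, 11.34 and 11.36 on wt+/mt+ arrays. Every wt-/mt- array lay above every array with the wild-type allele, while wt-/mt+ lay between and overlapped wt-/mt-. Apex1 averaged 11.91 ± 0.20 in wt-/mt- and 11.41 ± 0.10 in wt+/mt+ (SD, n = 3 each), a change of 0.50 (SE 0.120, 1.42-fold, adjusted p = 0.0146). It was 0.47 higher in wt-/mt- than in wt+/mt- (adjusted p = 0.0274), and the difference from wt-/mt+ was 0.20 (95% interval -0.06 to 0.47, adjusted p = 0.256). The wt-/mt+ arrays lay above all wt+/mt+ arrays, at a difference of 0.30 (0.04 to 0.57) that did not pass the test, and limma called 0 of 11457 genes in that comparison (412 at an unadjusted p under 0.05). With 1 weight per genotype the adjusted p for Apex1 was 0.0953 for the loss of both alleles and 0.186 against wt+/mt-. The first of these also ended without wt+/mt+ array 2 or 3 (adjusted p = 0.0607 and 0.0554). The second ended without array 7, 8, 9 or 12 (0.36 to 0.50, adjusted p 0.0537 to 0.0853). Without 7 and 8 together, which leaves array 9 alone in wt+/mt-, the second was 0.52.

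Apex1 has 2 further probe sets, which moved in the same direction by more. The second by level measured 11.03, 11.04 and 11.18 on wt-/mt- arrays, 10.57, 10.62 and 10.54 on wt-/mt+ arrays, 10.07, 10.52 and 10.50 on wt+/mt- arrays, and 10.56, 10.42 and 10.52 on wt+/mt+ arrays. Its wt-/mt- arrays lay above all 9 others. In a fit over all 45037 probe sets it rose by 0.58 against wt+/mt+ (adjusted p = 0.0098), 0.72 against wt+/mt- (adjusted p = 0.0055) and 0.51 against wt-/mt+ (adjusted p = 0.0200). The dimmest rose by 0.84, 0.67 and 0.57 in the same comparisons (adjusted p = 0.0015, 0.0075 and 0.0110). The call against wt-/mt+ therefore depended on the probe set, and the mean of all 3 gave 0.43 there (adjusted p = 0.0155 in the fit over genes). Among the 15 probe sets, 4, 4 and 3 were called higher against wt+/mt+, wt+/mt- and wt-/mt+, all of Ung or Apex1. Of all probe sets, 7.91%, 2.42% and 5.14% were called higher in these comparisons.

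**Figure D2:**
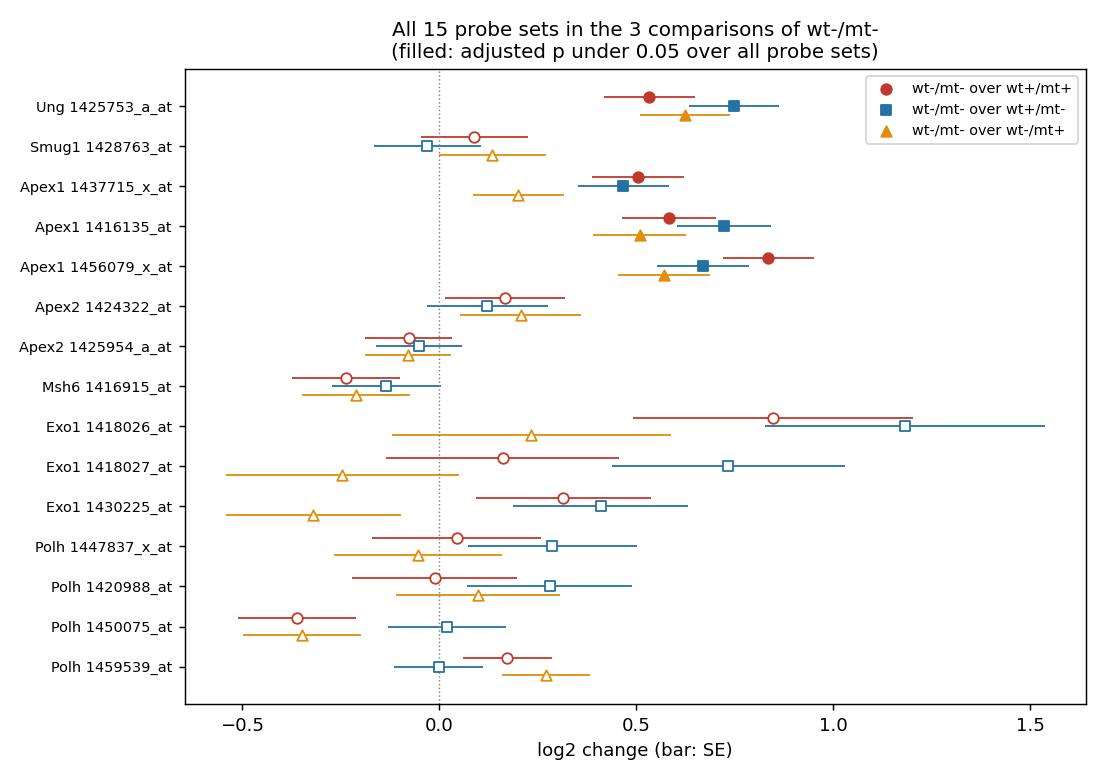
Log2 change with its SE for each of the 15 probe sets in wt-/mt- over wt+/mt+, wt+/mt- and wt-/mt+; filled symbols passed an adjusted p under 0.05 over all probe sets. The filled symbols belong to Ung and Apex1, and the 3 Exo1 and 4 Polh probe sets scatter on either side of 0 in part of the comparisons.

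Apex2, a second AP endonuclease with weaker cutting activity, gave no call. Its brighter probe set measured 6.74, 6.74 and 6.86 on wt-/mt- arrays, 6.64, 6.61 and 6.46 on wt-/mt+ arrays, 6.23, 6.82 and 6.93 on wt+/mt- arrays, and 6.59, 6.56 and 6.70 on wt+/mt+ arrays. The wt-/mt- arrays lay just above those of wt+/mt+ and wt-/mt+, and wt+/mt- spanned them all, with its lowest value on array 7, the array with the highest actin ratio. The change after loss of both alleles was 0.17 (95% interval -0.18 to 0.51, adjusted p = 0.465). The other probe set was not above the array median on any array and gave -0.08.

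Msh6, the mismatch-binding subunit, was the gene of the 7 whose mean in wt-/mt- was the lowest of the 4 genotypes. It measured 12.38, 12.37 and 12.05 on wt-/mt- arrays, 12.34, 12.52 and 12.57 on wt-/mt+ arrays, 12.65, 12.41 and 12.15 on wt+/mt- arrays, and 12.59, 12.51 and 12.41 on wt+/mt+ arrays. All wt-/mt- arrays lay below the wt+/mt+ arrays, by a small margin. The difference of -0.24 (SE 0.142, 95% interval -0.55 to 0.07) did not pass the test (adjusted p = 0.242). Such separation was common: 22.9% of kept genes had all wt-/mt- arrays above and 15.6% all below the wt+/mt+ arrays, while 3 and 1 of the 7 genes did.

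Exo1, the exonuclease that resects from the mismatch, had the widest differences of the 7 genes and the widest spread. It measured 8.74, 8.70 and 9.80 on wt-/mt- arrays, 8.93, 8.45 and 9.16 on wt-/mt+ arrays, 7.38, 7.80 and 8.52 on wt+/mt- arrays, and 8.72, 8.06 and 7.91 on wt+/mt+ arrays. The genotypes without the wild-type allele had the higher means, yet only wt-/mt- and wt+/mt- did not overlap. The difference between those was 1.18 (SE 0.362, 95% interval 0.39 to 1.98, adjusted p = 0.0510). It was 0.85 for the loss of both alleles (0.05 to 1.64, adjusted p = 0.111) and 0.95 for the mutant allele alone over the wild-type allele alone (0.15 to 1.74, adjusted p = 0.228). The dimmer probe sets gave 0.73 and 0.41 for wt-/mt- over wt+/mt-, 0.16 and 0.32 for the loss of both alleles, and 0.98 and 0.73 for the mutant over the wild-type allele alone. Without array 9, 10 or 11, Exo1 passed the test in wt-/mt- over wt+/mt- (1.35 to 1.49, adjusted p 0.0254 to 0.0396). Without array 12, the highest, it gave 0.82 there (adjusted p = 0.120) and 0.49 for the loss of both alleles (adjusted p = 0.299). Without the high-actin arrays 7 and 8, which leaves array 9 alone in wt+/mt-, it gave 0.56 over wt+/mt-. On chromosome 1, which holds Exo1, the median gene of wt-/mt- array 10 lay 0.31 below the wt+/mt+ mean, and relative to the chromosome's median gene on each array Exo1 passed there as well (1.36, adjusted p = 0.0262).

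Polh, the error-prone polymerase, gave no call, and its probe sets disagreed. The brightest measured 10.72, 10.02 and 11.13 on wt-/mt- arrays, 10.74, 10.54 and 10.75 on wt-/mt+ arrays, 10.24, 10.27 and 10.49 on wt+/mt- arrays, and 10.66, 10.59 and 10.48 on wt+/mt+ arrays. The wt-/mt- arrays held both the lowest and the highest value. The change after loss of both alleles was 0.04 (95% interval -0.44 to 0.53, adjusted p = 0.903), and the other 3 probe sets gave -0.01, -0.36 and 0.17, the last from a probe set below the median on all arrays. Without array 11, the lowest of wt-/mt-, Polh was 0.59 higher in wt-/mt- than in wt+/mt- (adjusted p = 0.0159), against 0.29 with it (adjusted p = 0.422).

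With 1 allele left, no gene of the 7 passed the test. Limma called 0% of kept genes for wt-/mt+ against wt+/mt+, 0.183% for wt+/mt- against wt+/mt+ and 0.0873% for wt-/mt+ against wt+/mt-, so a missing call among 7 genes says little there. The 7 changes lay between -0.09 and 0.61 in wt-/mt+ and between -0.33 and 0.12 in wt+/mt-, each against wt+/mt+. For the mutant allele alone over the wild-type allele alone, the 7 differences lay between -0.16 and 0.95. Apex1 (0.27, 95% interval 0.00 to 0.53, adjusted p = 0.301) and Polh (0.34, -0.14 to 0.82, adjusted p = 0.471) had all wt-/mt+ arrays above the wt+/mt- arrays, as did 14.2% of kept genes.

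**Figure D3:**
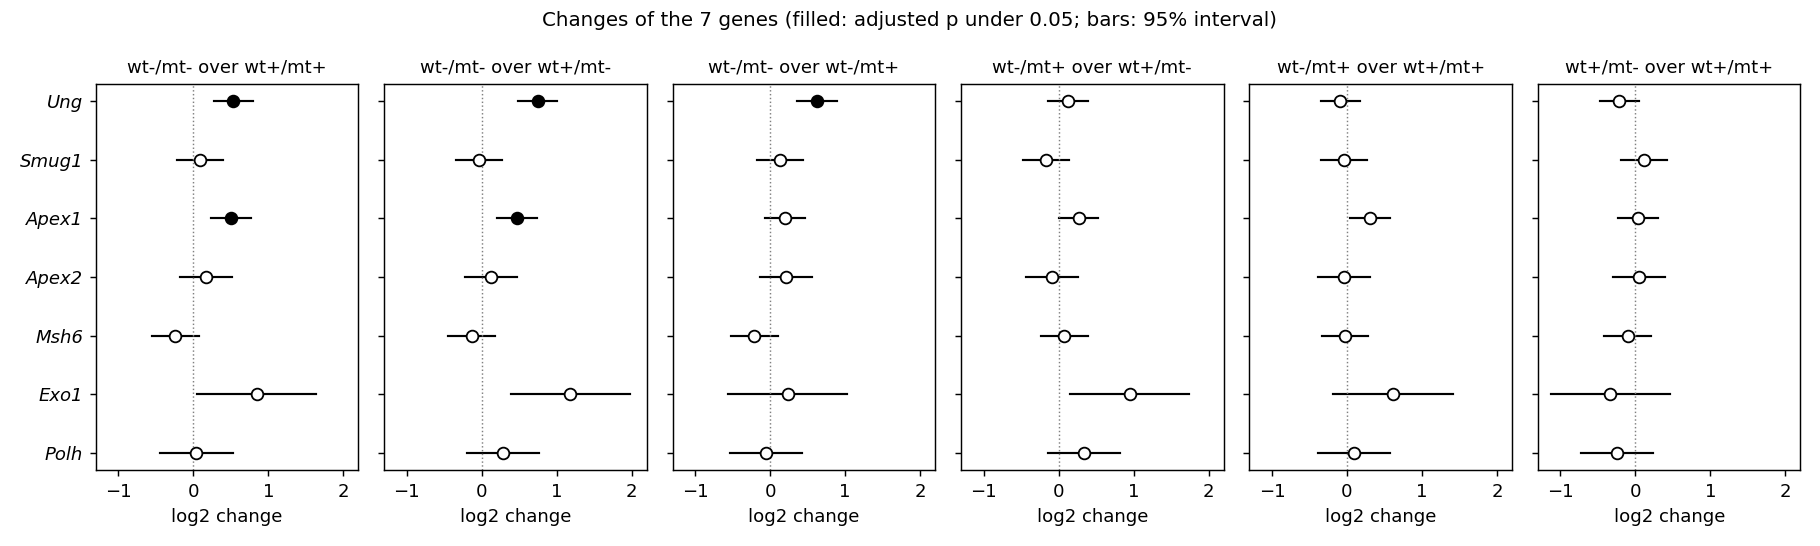
Log2 change of the 7 genes with its 95% interval in each of the 6 pairwise comparisons of genotypes, the group named first over the second; filled points passed an adjusted p under 0.05 over all kept genes. Each gene is its brightest probe set. Ung is filled in the 3 comparisons of wt-/mt- and Apex1 in those against wt+/mt+ and wt+/mt-.

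Ung and Exo1 are also known as genes whose transcripts increase around S phase, and the S phase list moved with genotype. Of 26 S phase genes, 12 rose in wt-/mt- against wt+/mt+, 15 against wt+/mt- and 5 against wt-/mt+, with median changes of 0.73, 0.95 and 0.30. Of all kept genes, 12.2%, 6.35% and 9.71% were called higher in these comparisons. The median of the S phase genes relative to the wt+/mt+ mean was 0.77, 0.25 and 1.00 on the wt-/mt- arrays, 0.41, 0.15 and 0.63 on the wt-/mt+ arrays, -0.54, -0.36 and 0.23 on the wt+/mt- arrays, and 0.26, -0.07 and -0.23 on the wt+/mt+ arrays. The values -0.54 and -0.36 came from the high-actin arrays 7 and 8. Over the 12 arrays, Pearson's r with the S phase median was 0.70 for Ung, 0.83 for Apex1 and 0.96 for Exo1, and 0.73 for Polh, 0.39 for Apex2, -0.14 for Smug1 and -0.51 for Msh6, as a description, since the arrays share genotype means. With the G2/M median, r was 0.68 for Ung, 0.81 for Apex1 and 0.89 for Exo1. Exo1 had its lowest level on array 7 and its highest on array 12, as did the S phase median, while on array 10 its level was that of arrays 1 and 11. Of 22 G2/M genes, 17, 13 and 2 rose in the same comparisons, and the 2 against wt-/mt+ are near the share of 9.71%. The part of the S phase and G2/M genes in these changes was not tested.

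**Figure D4:**
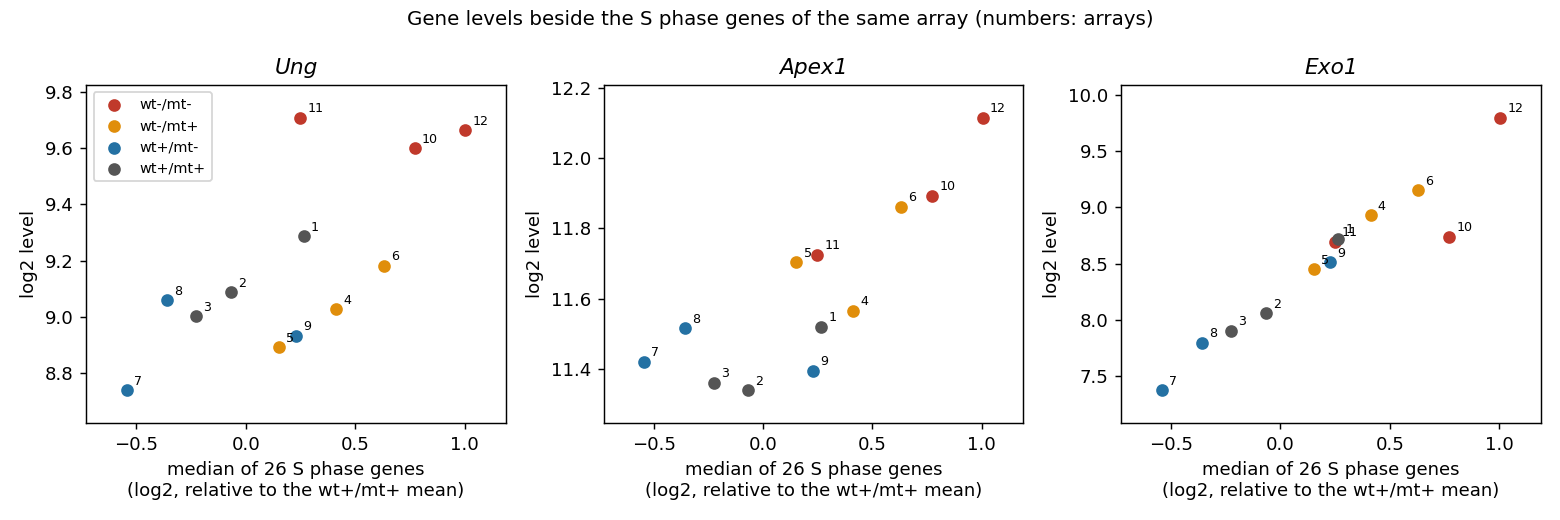
Log2 level of Ung, Apex1 and Exo1 on each array against the median of 26 S phase genes on the same array, relative to the wt+/mt+ mean; numbers are arrays and colours genotypes. All 3 genes run up with the S phase median, with r of 0.70 for Ung, 0.83 for Apex1 and 0.96 for Exo1, and the 3 wt-/mt- arrays of Ung sit between 9.60 and 9.71 at S phase medians of 0.25 to 1.00.

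The kept genes whose level over the 12 arrays was most like each of the 7 were ranked by Pearson's r, as a description, since arrays of a genotype share a genotype mean and may share a culture. For Ung these were Tnfaip1 (0.95), Timm8a1 (0.95) and Rpf2 (0.94), and after genotype means were removed their r was 0.62, 0.75 and 0.93. Rpf2 is a ribosome assembly factor. For Apex1 they were Alms1 (0.94), Rbbp7 (0.94), a histone chaperone, and Ermp1 (0.925). For Exo1 they were Lrr1 (0.98), Dtl (0.98), a ubiquitin ligase subunit that acts on replication factors, and Pcnt (0.97), with r of 0.97, 0.95 and 0.96 within genotypes. Polh was most like Rel (0.95), which encodes an NF-kB subunit, and within genotypes this r was 0.99. Msh6 was most like Tab2 (0.91), Apex2 most like Alkbh6 (0.93) and Smug1 most like Catsper2 (0.87). Among the 7 genes, Apex1 and Exo1 had r of 0.80, Ung and Apex1 0.72, and Apex2 and Msh6 -0.85.

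Among 15 other base excision genes, the glycosylase Neil1, which removes oxidised bases, fell furthest. Neil1 measured 12.10, 10.90 and 10.99 on wt-/mt- arrays, 13.12, 13.08 and 12.84 on wt-/mt+ arrays, 13.31, 13.07 and 13.05 on wt+/mt- arrays, and 13.25, 13.18 and 13.22 on wt+/mt+ arrays. All wt-/mt- arrays lay below all others. Neil1 fell by 1.89 in wt-/mt- against wt+/mt+ (SE 0.255, adjusted p = 0.000914), by 1.82 against wt+/mt- and by 1.68 against wt-/mt+, so within base excision it fell where Ung rose. The interaction was -1.62 (SE 0.361, adjusted p = 0.0389), and it ended on leaving out any of arrays 1 to 9 (adjusted p 0.0595 to 0.103). With 1 weight per genotype, which ended every call of Ung and Apex1, Neil1 kept all 4 of its calls (adjusted p 0.000715 to 0.00836). Ogg1, a glycosylase for oxidised guanine, rose by 0.65 after loss of both alleles (adjusted p = 0.024). Its mean was 7.71 on wt-/mt- arrays, 7.17 on wt-/mt+ arrays, 7.88 on wt+/mt- arrays and 7.05 on wt+/mt+ arrays. Its highest mean was thus with the wild-type allele alone, at 0.83 over wt+/mt+ (adjusted p = 0.0784), and wt-/mt- differed from wt+/mt- by -0.17 (95% interval -0.56 to 0.22). The 0.83 passed with 1 weight per genotype (adjusted p = 0.0130), with only the 2 genotypes in the fit (0.0298) and without array 10 (0.0464) or 12 (0.0420). The first 2 of these settings also called Ogg1 lower in wt-/mt+ than in wt+/mt- (-0.71, adjusted p = 0.0286 and 0.0454). The call after loss of both alleles ended with 1 weight per genotype (adjusted p = 0.163), with only the 2 genotypes in the fit (0.0852), relative to its chromosome's median (0.45, 0.0705) and without array 1, 3 or 12 (0.52 to 0.62, adjusted p 0.0557 to 0.0866). Xrcc1, a scaffold of the ligation step, rose by 0.68 against wt+/mt- (adjusted p = 0.0416). The list had 1 rise and 1 fall in each of these comparisons, 0 rises and 1 fall against wt-/mt+, and medians of -0.01, -0.01 and -0.06. Counts of this list and the next 3 stand against the shares of kept genes given above, 12.2% called higher and 9.94% lower after loss of both alleles, 6.35% and 8.23% against wt+/mt-, and 9.71% and 11.1% against wt-/mt+, and calls as few as 1 among 14 or 15 genes are near or under those shares.

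Of 17 other mismatch repair genes, which include the replication factors that serve it, 1 rose after loss of both alleles, 5 rose against wt+/mt- and 0 were called against wt-/mt+, with 0 falls. Their medians were 0.23, 0.48 and 0.02. Rfc4, a clamp loader subunit, rose by 0.86 and 1.18 in the first 2 comparisons (adjusted p = 0.0266 and 0.0100). Against wt+/mt-, the polymerase delta subunits Pold2 (1.04, adjusted p = 0.0435) and Pold1 (0.82, adjusted p = 0.0477) and the single-strand binding subunit Rpa3 (0.69, adjusted p = 0.0125) rose as well. Leaving out the high-actin arrays 7 and 8 leaves array 9 alone in wt+/mt-. Against it, Rfc4 gave 0.54, Pold2 0.69, Rpa3 0.36 and Pold1 0.92.

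Of 14 other translesion genes, 1 rose and 2 fell after loss of both alleles, 1 rose and 3 fell against wt+/mt-, and 0 rose and 3 fell against wt-/mt+, with medians of -0.19, -0.22 and -0.25. After loss of both alleles these 3 calls are near the share of all kept genes called. Poli, an error-prone polymerase of the same family as Polh, measured 8.47, 9.03 and 7.64 on wt-/mt- arrays, 9.85, 10.01 and 9.62 on wt-/mt+ arrays, 9.46, 9.34 and 9.62 on wt+/mt- arrays, and 9.19, 9.62 and 9.65 on wt+/mt+ arrays. It was lowest on all 3 wt-/mt- arrays and fell by 1.10, 1.09 and 1.45 in the 3 comparisons (adjusted p = 0.0199, 0.0280 and 0.00596). Ube2b, which with Rad18 marks the sliding clamp for translesion synthesis, fell by 0.50 against wt+/mt+ (adjusted p = 0.0325), and its close relative Ube2a rose by 0.35 (adjusted p = 0.0422). The 4 probe sets of Ube2b ranged from -0.99 to -0.50, and the 2 of Ube2a gave 0.08 and 0.35. The call of Ube2a ended with the mean of its probe sets (0.21, adjusted p = 0.144) and with arrays centred on their median (0.27, adjusted p = 0.131). Rad18 rose by 0.70 against wt+/mt- (adjusted p = 0.0385), or 0.12 without arrays 7 and 8, which leaves array 9 alone in wt+/mt-. Poln and Hltf fell by 0.48 and 0.43 against wt+/mt-.

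Of 14 genes that bind or regulate the deaminase, 0 rose and 1 fell after loss of both alleles, 0 rose and 1 fell against wt+/mt-, and 1 rose and 2 fell against wt-/mt+, with medians of 0.09, 0.04 and 0.10. The counts are near or under the shares of kept genes called, and the genes below are named without a result for the list. Prkar1a, a regulatory subunit of protein kinase A, fell by 0.40 against wt+/mt+ (adjusted p = 0.023), but its 3 probe sets ranged from -0.40 to 0.29. Rnf20, a histone ubiquitin ligase, fell by 0.32 against wt+/mt- (adjusted p = 0.041), and Supt6, a transcription elongation factor, rose by 0.53 against wt-/mt+ (adjusted p = 0.030). Probe sets of Rnf20 and Supt6 also disagreed, at -1.08 to 0.01 and -0.06 to 0.53. In the 3 comparisons with an allele left in both groups, 0 genes of these 4 lists were called by limma, with between 0 and 9 of a list at an unadjusted p under 0.05. Without the high-actin arrays 7 and 8, which leaves array 9 alone in wt+/mt-, Neil1 gave -1.72 and Poli -1.24 against wt+/mt-. Of the 26 calls named for these lists, between 10 and 24 held on leaving out each array in turn. With no filter on dim genes 21 held, and with only the 2 genotypes compared in the fit 3 of 25 held. With 1 weight per genotype 5 held, those of Neil1 and that of Poli against wt-/mt+.

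**Figure D5:**
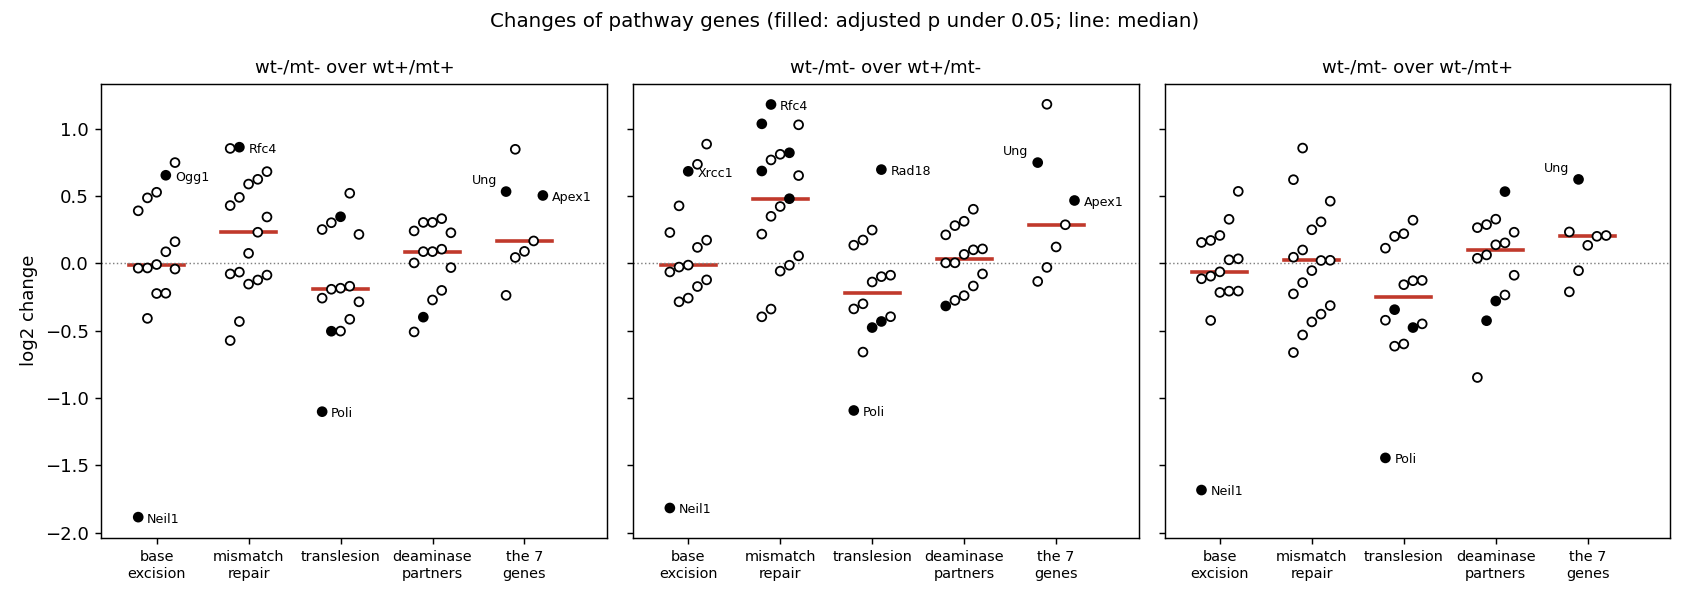
Log2 change of the other genes of base excision (15), mismatch repair (17), translesion synthesis (14) and deaminase partners (14), and of the 7 genes, in wt-/mt- over each of the other genotypes; filled points passed an adjusted p under 0.05 and lines are medians. Neil1 and Poli lie lowest in all 3 panels, and Ung and Rfc4 are among the filled points above 0.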

How the data were processed

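Total RNA of BL#19 cells, a murine Burkitt lymphoma line, was hybridised to 12 Affymetrix mouse arrays, which the labels place in 4 Foxo1 genotypes of 3 arrays. The deposited values are log2 levels per probe set. According to the submitters' processing notes the authors used RMA, whose version is not given in the sources used here. RMA equalises the distributions of the arrays, which takes out most of a shift that the bulk of genes would share. Base 2 is assumed because RMA usually gives it and because the values span 3.09 to 15.57.

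Probe sets were named through the platform annotation, with symbols updated through RefSeq (GRCm38.p6). A single gene was given for 34945 probe sets, several genes for 932, which stayed unnamed, and 64 controls were left out. Each gene was its brightest probe set, kept when above the array median on at least 3 arrays, which left 11457 of 18193 genes. Changes came from lmFit and eBayes of limma 3.58.1 (R 4.3.3), with a mean for each genotype. A gene was called where its p, adjusted by Benjamini-Hochberg over the kept genes, lay under 0.05. The same fit over 45037 probe sets, with no filter, gave the values of single probe sets. Brackets after a change give limma's 95% interval, and errors of changes are its standard errors.

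Named were the 7 genes, Foxo1, up to 4 called genes of each pathway list per comparison by size, and up to 3 most similar genes. The genes and lists were chosen with earlier results of these data known. Alternatives covered scaling, filter, probe set choice, spread, samples in the fit, the actin ratio and each array left out. Centring on each chromosome's median was chosen after seeing the data. The fit was tested on simulated data. No array pair had identical values.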

Additional observations from a re-analysis of the deposited data

Results flagged for a closer look

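The effect of losing the mutant allele differed with the state of the wild-type allele, by limma's interaction test, for 3 of the genes named. For Foxo1 itself, the check of the labels, the interaction was -1.71 (SE 0.332, adjusted p = 0.0226). That call ended with the actin ratio as a covariate (-1.46, adjusted p = 0.0866) and on leaving out array 1, 2, 3, 4, 6, 7 or 8 (adjusted p 0.0572 to 0.0715). Without arrays 7 and 8, which leaves array 9 alone in wt+/mt-, the interaction of Foxo1 was -1.43. For Neil1 the interaction was -1.62 (SE 0.361, adjusted p = 0.0389), with a fall of 1.68 without the wild-type allele. This call ended with the actin ratio as a covariate (-1.49, adjusted p = 0.139) and on leaving out any of arrays 1 to 9 (adjusted p 0.0595 to 0.103). Without arrays 7 and 8 the interaction of Neil1 was -1.52. For Ung the interaction was 0.84 (SE 0.168, adjusted p = 0.0246), from 0.62 without and -0.22 with the wild-type allele. The call of Ung ended with 1 weight per genotype (adjusted p = 0.0763) and with the actin ratio as a covariate (0.77, adjusted p = 0.0929). It also ended on leaving out array 1, 2, 3, 4, 5 or 7 (adjusted p 0.0512 to 0.0760). Without arrays 7 and 8 the interaction of Ung was 0.82. Groups of 3 arrays are too small for a test of outlying arrays.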

How the results depend on the processing

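For 49 changes of the 7 genes, 1113 values were recomputed. Of these, 1076 kept their status, called or uncalled, 29 lost a call, 8 gained one and 0 reversed. Among uncalled values, 53 changed sign. Called in the reported fit were 2 changes after loss of both alleles, 2 against wt+/mt-, 1 against wt-/mt+ and 1 in the interaction. All 29 losses fell on these few calls, and most of the 1076 values were uncalled in both fits. With 1 weight per genotype, 0 of the 7 genes were called after loss of both alleles, against wt+/mt-, against wt-/mt+, in the interaction and in the F test. With only the 2 genotypes compared in the fit, 0 were called after loss of both alleles (Ung adjusted p = 0.0503, Apex1 0.0795) and 0 against wt+/mt- (Ung 0.0644, Apex1 0.167). With the actin ratio as a covariate, 0 were called against wt+/mt- (Ung 0.67, adjusted p = 0.0594), 0 in the interaction and 1 in the F test. Leaving out arrays 7 and 8 leaves array 9 alone in wt+/mt-. Calls of that fit are not listed apart, though the totals in this section include them. The mean of all probe sets of a gene raised the count against wt-/mt+ to 2, with Apex1. Leaving out each array in turn gave 0 to 2 called genes after loss of both alleles, 1 to 4 against wt+/mt-, 0 to 1 in the interaction and 1 to 3 in the F test. Ung kept its call against wt+/mt- and wt-/mt+ in 12 of 12 such fits. Exo1 passed against wt+/mt- after quantile normalization (1.24, adjusted p = 0.0444) and when genes had to lie above the median on all arrays (adjusted p = 0.0450). Over all kept genes, counts of calls ranged over the alternatives other than leaving out an array from 815 to 3048 after loss of both alleles (2534 in the fit reported), 115 to 1794 against wt+/mt- (1671), 519 to 2551 against wt-/mt+ (2381), 56 to 402 in the interaction (360), 0 to 950 for wt+/mt- and 0 to 53 for wt-/mt+ against wt+/mt+, and 0 to 835 for wt-/mt+ against wt+/mt-. No paired analysis was possible because the array numbers run from 1 to 12 and no number is shared between genotypes.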

Other observations

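Apex2 and Msh6 ran against each other over the 12 arrays, with r of -0.85 across all arrays and -0.82 after genotype means were removed. This pair is named because its r was the largest in size among all pairs of the 7 genes. Apex2 is a dim gene, and on array 7 it lay under the array median of 6.24. Apex2 was lowest, at 6.23, on wt+/mt- array 7, where Msh6 was highest, at 12.65, and on wt-/mt- array 12 Msh6 was lowest, at 12.05, while Apex2 measured 6.86. Arrays of a genotype may share a culture, which the labels do not state, and array 7 also had the highest actin 3' to 5' difference, 2.17.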
